A study of Mus musculus with 8 samples.

Results

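Myc encodes a transcription factor that drives growth and division, and blood stem and progenitor cells depend on its dose. Its expression in these cells is known to rely on a cluster of enhancers far downstream of the gene, past the non-coding gene Pvt1, which contact the Myc promoter over a long chromatin loop. Cohesin, the ring complex that contains Smc3, forms such loops, and Flt3-ITD is an internal duplication that switches on the cytokine receptor Flt3 and occurs in acute myeloid leukemia. The Myc locus was taken as every peak that overlapped chr15:61800000-63650000 of the mouse build mm9, an 1850 kb stretch that starts just before Myc (about 61817000-61822000, plus strand) and ends past the far enhancers. It held 361 of the 557040 peaks in the 8 lists, and these merged into 84 of 114533 union regions, where a union region joins all peaks that overlap by at least 1 bp. Any peak of a library inside a region made it a called region there.

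The peaks come from ATAC-seq, in which a transposase cuts DNA that is open, on c-Kit+ cells selected with magnetic beads from bone marrow of individual mice. Each library used 50000 cells taken 4 weeks after PIpC, which induces the Mx1-Cre recombinase in blood cells. The 4 genotypes had 2 libraries each. Smc3-deleted Flt3-ITD mice carried Mx1-Cre, a Smc3 deletion and Flt3-ITD, and have Smc3 fl/del as genotype but a title that reads Smc3 het. Flt3-ITD mice are titled Mx1-Cre positive with the duplication, and Smc3 del/+ mice had Mx1-Cre and 1 deleted Smc3 allele. Control mice were Smc3 fl/+ without Mx1-Cre, so Cre itself differs between each mutant and control. The labels conflict on the single genotypes, since the description of the Flt3-ITD libraries names a floxed Smc3 allele, and that of the Smc3 del/+ libraries names Flt3-ITD. Groups here follow title and genotype. Age and strain are not given in the labels. Whether the libraries of a genotype came from separate animals is not stated outright, so the spread between them may be technical. The cells were not checked against a marker such as Kit, since no annotation of mm9 was used. In bulk cells, a change in cell make-up and a change in openness per cell cannot be told apart.

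Read depth is unknown, and only the length of the lists shows how much was called. Smc3-deleted Flt3-ITD lists held 80698 and 80316 peaks, against 61953 to 74525 in the other 6 libraries. They also stood apart on the Y chromosome, with 294 and 282 peaks against 84 to 98 in the others. On the X chromosome lay 2.60% and 2.72% of their peaks, against 3.49% to 3.79% in the others. Whether the sex of the mice differed was not tested. Such a difference could not be told apart from the combined genotype in any comparison with it. The differences in covered bases for Flt3-ITD and for Smc3 deletion are therefore also given without these libraries.

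Along the locus, peaks were gathered at both ends. The region at the Myc promoter was called in all 8 libraries, and the last 250 kb held 26 regions, of which 10 were called in all 8. Those 10 lay within 138 kb, between 63434577 and 63572858, which is 1618 to 1756 kb downstream of the start of Myc. The last 250 kb had 10.4 union regions per 100 kb, against 3.19 in the middle (61832001-63400000) and 4.63 over chromosome 15 as a whole. In all, 38.5% of its regions were called in every library. That share was 20% in the middle, 25% over the locus and 31.5% over the genome. Regions called in a single library numbered 19, or 22.6% of the locus, against 24% over the genome. The 6 windows of 250 kb before it, from 61900001, held 21, 7, 3, 5, 2 and 5 regions. The longest stretch without a peak in any library ran for 242 kb, from 62233186 to 62475628. No library had a peak past 63603448.

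**Figure D1:**
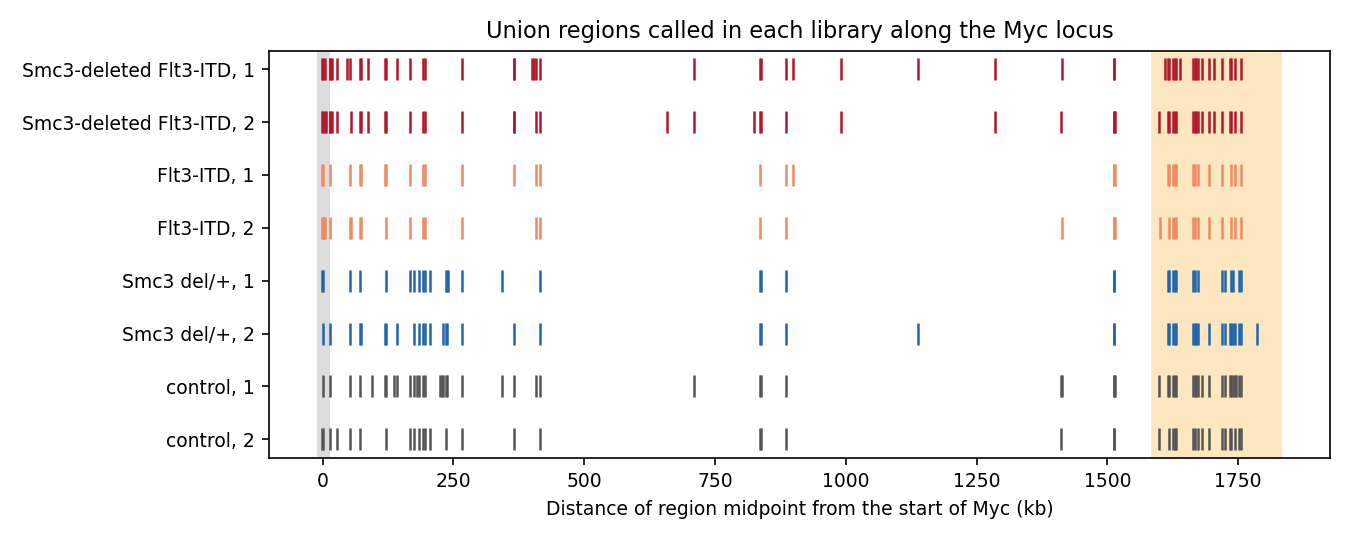
Union regions called in each of the 8 libraries (rows) by the distance of the region midpoint from the start of Myc in kb, where each tick is 1 called region. The grey band is Myc with 10 kb on each side and the orange band is the last 250 kb, which held 26 of the 84 regions.

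A score of exactly 1, the top value in the authors' lists, was given in all 8 libraries to 4 regions of the locus, or 4.76% of its 84 regions, against 11.2% of regions over the genome. One was the Myc promoter, 1 lay at chr15:63328475-63329598, 1512 kb downstream, and 2 lay in the last 250 kb at chr15:63479417-63480728 and chr15:63535909-63537228. No source used here says what the score measures, and these regions were singled out after their values were seen.

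The Myc promoter region, chr15:61816407-61817241, was open in every genotype, and its peak was shorter in each library with Flt3-ITD than in any without it, a difference that did not pass across the genome. Peaks covered 346 and 380 bp of it in Smc3-deleted Flt3-ITD libraries and 278 and 337 bp in Flt3-ITD libraries. They covered 407 and 753 bp in Smc3 del/+ libraries and 792 and 436 bp in control libraries. All 4 libraries with Flt3-ITD lay below all 4 without it, so the sides did not overlap. The mean was 335 ± 42.4 bp with Flt3-ITD and 597 ± 204 bp without it (SD, n = 4 each), a difference of -262 bp with the smallest exact two-sided permutation p that 4 libraries against 4 allow, 0.0286. The permutation p no longer passed once adjusted by Benjamini-Hochberg across the 36101 regions called in all 8 libraries (adjusted p = 0.906). Of those regions, 1.92% were narrower in every library with Flt3-ITD than in every library without it, and the promoter was the only such region among the 21 of the locus. Leaving out any 1 of the 4 libraries with Flt3-ITD brought the exact permutation p to between 0.0857 and 0.114, and leaving out any of the others kept it at 0.0286. Without the combined genotype, the difference of Flt3-ITD from control was -306.5 bp (exact permutation p = 0.333, the smallest that 2 against 2 allow). The lack of overlap there follows from that in all 8 libraries, so it adds no further support. For Smc3 deletion the difference at the promoter was 10.8 bp (exact permutation p = 0.886), which is also the value for Flt3-ITD if the exchanged descriptions are right.

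Just upstream of the promoter, 6 of 8 libraries had a further peak, in 1 of a pair of neighbouring regions. Smc3-deleted Flt3-ITD replicate 2 and Flt3-ITD replicate 1 had it in chr15:61814715-61815229, and Smc3-deleted Flt3-ITD replicate 1, Flt3-ITD replicate 2, Smc3 del/+ replicate 1 and control replicate 2 had it in chr15:61815267-61815724. The libraries without it, Smc3 del/+ replicate 2 and control replicate 1, were those with the widest peak at the promoter itself.

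**Figure D2:**
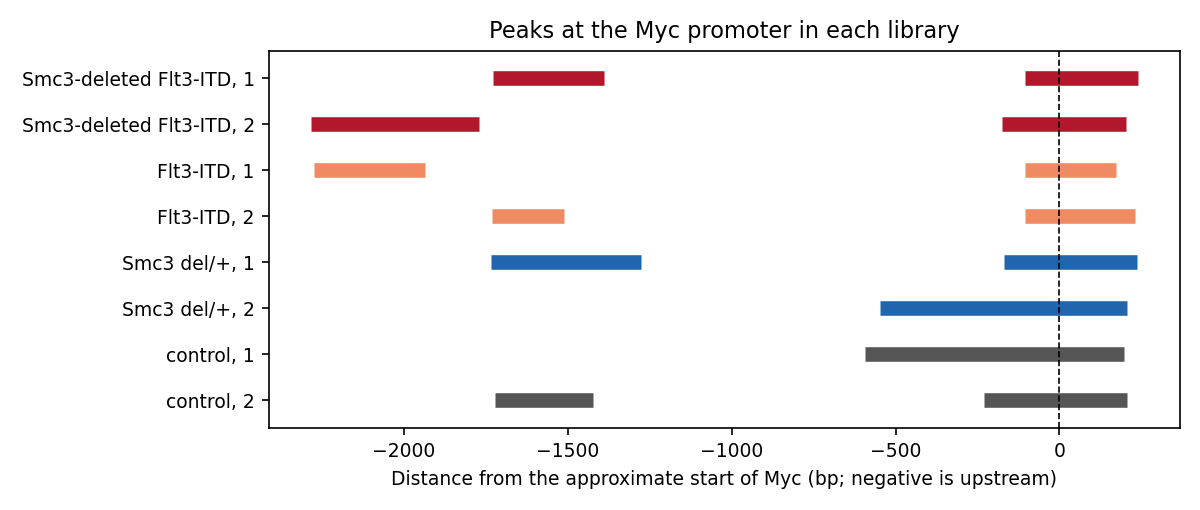
Peaks (bars, to scale) within about 2.5 kb of the Myc promoter in each library, by distance from the approximate start of Myc in bp. The bar that spans the start is shorter in the 4 libraries with Flt3-ITD (278 to 380 bp) than in the 4 without (407 to 792 bp).

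Inside the gene span, past the promoter peak, 3 of the 4 libraries with Flt3-ITD had a peak and none of the 4 without it. The genome share of this pattern was not computed. The region chr15:61820411-61821213, near the 3′ end of the gene span, was covered by 511 and 346 bp in Smc3-deleted Flt3-ITD libraries, by 0 and 803 bp in Flt3-ITD libraries, and by no peak in Smc3 del/+ or control. Its 3 peaks had low scores, at percentiles 19.3, 6.69 and 9.11 of their lists. The region chr15:61829851-61830896, 13.4 kb from the start of Myc, was covered by 379 and 1001 bp in Smc3-deleted Flt3-ITD libraries, at score percentiles 7.16 and 6.25. No other library called it, though 5 of the other 6 had a peak within 1 kb. That neighbour, chr15:61831036-61832203, was called in every library but Smc3 del/+ replicate 1. A single library each called chr15:61818387-61818759 (Flt3-ITD replicate 2) and chr15:61822676-61823318 (Smc3-deleted Flt3-ITD replicate 2). Of the 8 regions at Myc, only the promoter was called in all 8 libraries, and 2 were called in all 7 without Smc3 del/+ replicate 1.

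Bases covered at Myc with 10 kb on each side (61807000-61832000) were 2.44 and 3.30 kb in Smc3-deleted Flt3-ITD libraries, 0.97 and 2.08 kb in Flt3-ITD, 0.865 and 1.24 kb in Smc3 del/+ and 1.2 and 1.4 kb in control. Both libraries of the combined genotype lay above all 6 others, and the other genotypes overlapped. Per Mb of bases in the whole list, they were 58.8 and 79.0 bp in the combined genotype and 23.7 to 57.0 bp in the others. The difference for Flt3-ITD, 2.20 ± 0.965 kb with it and 1.17 ± 0.223 kb without (SD, n = 4 each), was 1.02 kb and did not pass (exact permutation p = 0.114, adjusted over 9 tests 0.45). It was 0.224 kb without both Smc3-deleted Flt3-ITD libraries, where the exact permutation p was 1, and 0.301 kb both in lists cut to equal length and in the upper 50% by score. For Smc3 deletion it was 0.550 kb (exact permutation p = 0.429), and it turned to -0.248 kb without those libraries and to -0.171 kb at equal list length. The interaction was 0.797 kb (exact permutation p = 0.2) and 0.077 kb at equal list length.

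**Figure D3:**
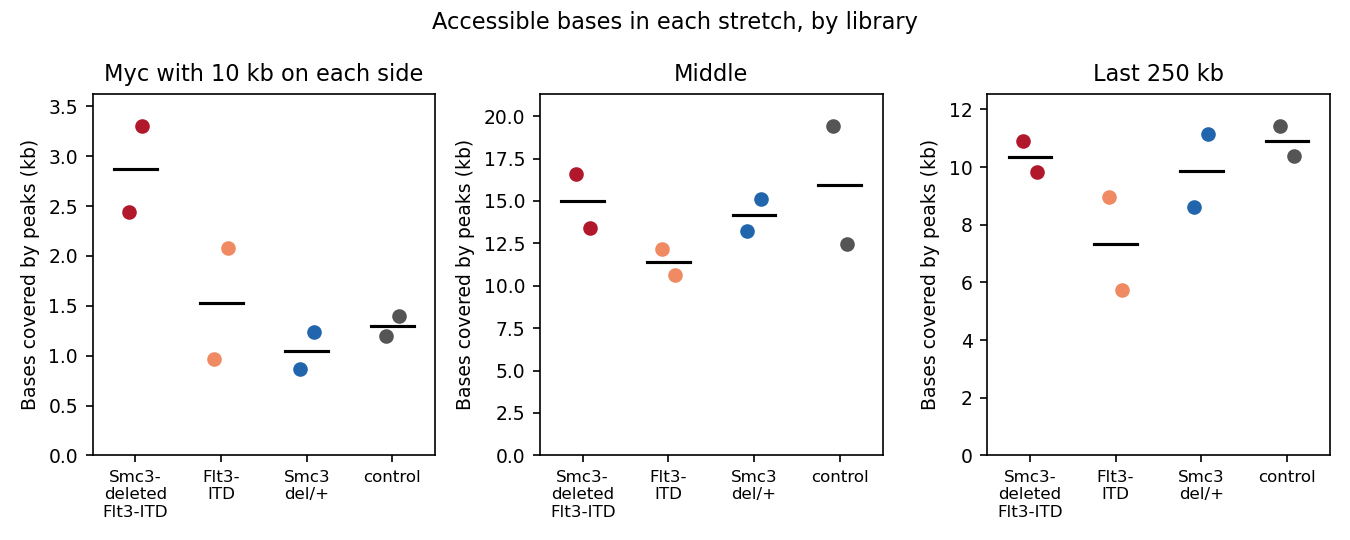
Bases covered by peaks in kb at Myc with 10 kb on each side, in the middle and in the last 250 kb, by genotype, where each point is 1 library and the line is the mean of 2. At Myc the Smc3-deleted Flt3-ITD libraries (2.44 and 3.30 kb) lie above the rest, and in the last 250 kb Flt3-ITD replicate 2 (5.73 kb) is the lowest.

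In the last 250 kb, where the blood enhancers lie, peaks covered 10.9 and 9.82 kb in Smc3-deleted Flt3-ITD libraries and 8.96 and 5.73 kb in Flt3-ITD libraries. They covered 8.62 and 11.1 kb in Smc3 del/+ libraries and 11.4 and 10.4 kb in control libraries. Both Flt3-ITD libraries lay below both control libraries and both of the combined genotype, and Smc3 del/+ overlapped all of these genotypes. None of the contrasts passed. With Flt3-ITD the mean was 8.85 ± 2.23 kb, against 10.4 ± 1.26 kb without it (difference -1.54 kb, exact permutation p = 0.286). It was -3.55 kb without both Smc3-deleted Flt3-ITD libraries (exact permutation p = 0.333, the smallest that 2 against 2 allow). Per Mb of bases in each list it was -60.7 bp (exact permutation p = 0.0571, adjusted 0.343). With Smc3 deletion it was 10.1 ± 1.15 kb, against 9.12 ± 2.48 kb without (SD, n = 4 each; difference 0.999 kb, exact permutation p = 0.571). The Smc3 value turned to -0.132 kb without Flt3-ITD replicate 2, and to -1.02 kb without both libraries of the combined genotype. The interaction, which sets the combined genotype and control against the single genotypes, gave 2.02 kb (exact permutation p = 0.114). All 9 tests of 3 stretches and 3 contrasts had an adjusted p of at least 0.45.

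The region with the most open bases on average was chr15:63444366-63446811, 1629 kb from the start of Myc. Peaks covered 1095 and 1385 bp of it in Smc3-deleted Flt3-ITD libraries, 1720 and 1141 bp in Flt3-ITD, 1165 and 416 bp in Smc3 del/+ and 1014 and 1448 bp in control, so all genotypes overlapped. It stood between chr15:63442499-63444037 and chr15:63447748-63448997, with chr15:63434577-63435724 before them, and all 4 were called in all 8 libraries. A second group of regions called everywhere lay at chr15:63479417-63480728, chr15:63483941-63484781 and chr15:63488773-63490428. The first of these, with the top score in every library, was covered by 690 and 528 bp in Smc3-deleted Flt3-ITD libraries, 770 and 269 bp in Flt3-ITD, 1046 and 1147 bp in Smc3 del/+ and 1117 and 724 bp in control. With Flt3-ITD the mean there was 564 ± 221 bp, against 1009 ± 194 bp without it (SD, n = 4 each; exact permutation p = 0.0571, adjusted over the genome 0.947), and the sides overlapped, since Flt3-ITD replicate 1 lay above control replicate 2. The rest were chr15:63535909-63537228, chr15:63553137-63554008 and chr15:63571799-63572858. At chr15:63535909-63537228 the low p was for Smc3 deletion, with a mean of 421.5 ± 74.2 bp, against 859 ± 378 bp without it (SD, n = 4 each; exact permutation p = 0.0571). It did not pass across the genome. The sides overlapped, since Smc3 del/+ replicate 1 (484 bp) lay above control replicate 1 (463 bp). Across the 20 regions of the middle and the last 250 kb called in all 8 libraries, no contrast separated all libraries of one side from all of the other by width. Over the genome, 1.24% of regions called in all 8 were wider in every library with Flt3-ITD. For Smc3 deletion 1.5% were wider and 1.3% narrower, and for the interaction 0.77% and 3.35%, against none of the 21 regions of the locus for these 5 classes.

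**Figure D4:**
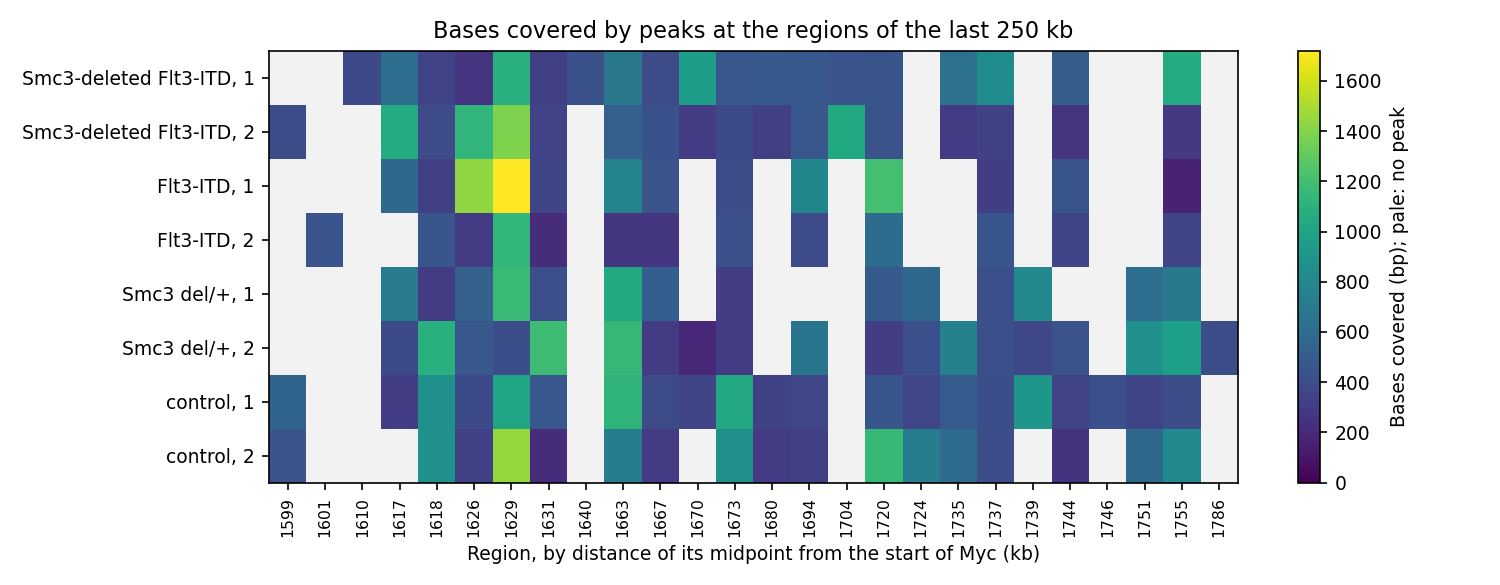
Bases covered by peaks in bp (colour) at the 26 regions of the last 250 kb (columns, by distance from the start of Myc in kb) in each library (rows), where pale cells have no peak. The columns at 1724 and 1751 kb are filled in all 4 libraries without Flt3-ITD and empty in all 4 with it.

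Across the locus, 5 regions were called in all 4 libraries without Flt3-ITD and in none with it, or 5.95% of 84 regions, against 1.14% over the genome. The reverse pattern, peaks in each Flt3-ITD-bearing library alone, was not found, against 0.88% over the genome, and for Smc3 deletion no region was split in either direction (0.133% and 0.169% over the genome). In the middle stretch, chr15:61990066-61991362 lay 174 kb from the start of Myc. It was covered by 940 and 629 bp in Smc3 del/+ libraries and by 823 and 907 bp in control libraries. Its neighbour chr15:62001076-62001576 was covered by 377 and 424 bp in Smc3 del/+ libraries and by 413 and 111 bp in control libraries. The third, chr15:62052198-62053542, was covered by 1026 and 1093 bp in Smc3 del/+ libraries and by 315 and 1184 bp in control libraries. In these regions the Smc3 del/+ and control values overlapped.

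The remaining 2 lay in the last 250 kb. The region chr15:63540849-63541806, 1724 kb from the start of Myc, was covered by 584 and 419 bp in Smc3 del/+ libraries and by 368 and 722 bp in control libraries. The region chr15:63567608-63568608, at 1751 kb, was covered by 624 and 871 bp in Smc3 del/+ libraries and by 359 and 583 bp in control libraries. No library with Flt3-ITD had a peak within 1 kb of any of the 5, and the nearest such peaks lay between 3.19 and 30.4 kb away. In lists cut to equal length, 4 of 69 regions split this way (5.8%, against 1.42% over the genome), and without the combined genotype 6 of 69 did (8.7%, against 2.11%). In the upper 50% by score it was 1 of 41 regions (2.44%, against 0.549%), and with the descriptions of the single genotypes exchanged there was none.

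Flt3-ITD and control differ by Mx1-Cre as well as the duplication, and in the middle and the last 250 kb the comparison showed losses. Of 40 regions that had a peak in each library of at least 1 of these genotypes, Flt3-ITD lost 10, meaning that each control library called them and no Flt3-ITD library did. That is 25%, against 7.85% over the genome. It gained 1, or 2.5%, against 4.42%. Of the lost regions, 5 lay in the last 250 kb, where 17 could be compared, 5 in the middle, where 21 could, and none at Myc, where 2 could. Besides those named above they were chr15:63415992-63416960, chr15:63497030-63497800 and chr15:63551457-63552472 there, and in the middle chr15:62654803-62656077 and chr15:63226828-63228109. At chr15:62654803-62656077, the Flt3-ITD libraries each had another peak at most 0.576 kb away, and it was the only region that the other 6 libraries all shared without Flt3-ITD (1 of 84, or 1.19%, against 0.412% over the genome). The gained region was chr15:61888675-61890095, covered by 752 and 1301 bp in Flt3-ITD libraries and by none in control. It began 0.005 kb past chr15:61887489-61888669, which all 8 libraries called, with 323 and 377 bp in control. With peaks within 500 bp merged, Flt3-ITD gained 0 of 37 regions, against 3.89% over the genome. In lists of equal length 8 of 38 regions were lost (21.1%, against 6.76% over the genome), and in the upper 50% by score 4 of 18 (22.2%, against 6.26%). Without control replicate 2, which loosens the rule, 23 of 57 were lost (40.4%, against 18.8%). The single gain became 5 without Flt3-ITD replicate 1 (10.6%, against 10.7%), 3 without Flt3-ITD replicate 2 (6.82%, against 12.2%) and 3 without control replicate 1 (6.98%, against 9.48%), all below the genome's share. With 2 libraries against 2 the smallest permutation p is 0.333, so no test is given for a pair.

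Smc3 del/+ and control differ by Mx1-Cre as well as the loss of 1 Smc3 allele. With all libraries the share of the locus that moved was near or below that of the genome. Smc3 del/+ lost 3 of 40 regions (7.5%, against 8.04% over the genome) and gained none, against 3.02%. The lost regions were chr15:63226828-63228109, chr15:63415992-63416960 and chr15:63497030-63497800, and peaks covered 0 and 0 bp of each in Smc3 del/+ libraries. In control libraries they covered 1282 and 404 bp of the first, 555 and 453 bp of the second and 336 and 309 bp of the third. These regions also stand among the losses of Flt3-ITD, a comparison with the same control libraries. In the upper 50% by score, 4 of 18 regions were lost (22.2%, against 9.12% over the genome). The losses numbered 14 without control replicate 2 (25%, against 18.6%) and 8 without Smc3 del/+ replicate 2 (18.2%, against 13.0%), so in these settings the share of the locus was above that of the genome. In other settings it was below. The losses were 4 without Smc3 del/+ replicate 1 (8.33%, against 12.3%), 4 without control replicate 1 (9.52%, against 14.0%) and 2 of 39 at equal list length (5.13%, against 5.82%). Gains numbered 3 without Smc3 del/+ replicate 1 (6.25%, against 9.71%), 2 without Smc3 del/+ replicate 2 (4.55%, against 9.01%) and 2 without control replicate 1 (4.76%, against 7.97%).

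Smc3-deleted Flt3-ITD against control, which shares those control libraries too, showed 9 regions gained and 5 lost of 52. The gains were 17.3%, against 14.2% over the genome, and the losses 9.62%, against 6%. The 5 lost regions were those called in every library without Flt3-ITD. The highest-ranked gains of the middle were chr15:61888675-61890095, which was also gained in Flt3-ITD, then chr15:62182829-62183221 and chr15:61834446-61834780. The first of these began 0.005 kb past a region called in all 8 libraries. With peaks within 500 bp merged, gains numbered 6 of 46 (13.0%, against 14.3% over the genome). In lists of equal length, gains numbered 3 of 40 (7.5%, against 10.5% over the genome) and losses 5 (12.5%, against 8.69%). Gains numbered 14 without Smc3-deleted Flt3-ITD replicate 1 (24.1%, against 22.4%), 17 without its replicate 2 (27.4%, against 22.4%) and 14 without control replicate 1 (25.9%, against 20.9%). Without control replicate 2 they numbered 10 (15.2%, against 15.1%), near the genome's share. Losses numbered 16 without control replicate 2 (24.2%, against 14.5%).

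Smc3 deletion on top of Flt3-ITD went with gains. Compared with Flt3-ITD alone, the combined genotype gained 13 of 46 regions, or 28.3%, against 13% over the genome, and lost none, against 2.96%. Among the gains, chr15:62654803-62656077, chr15:63497030-63497800 and chr15:63551457-63552472 also stand among the losses of Flt3-ITD against control, a comparison that shares the Flt3-ITD libraries. Another in the last 250 kb, chr15:63486069-63487029, was covered by 961 and 298 bp in the combined genotype and by none in Flt3-ITD. The combined lists were longer, and with equal length the gains were 3 of 34 (8.82%, against 7.14% over the genome) and the losses 1 (2.94%, against 5.85%). The gains were 20 without Smc3-deleted Flt3-ITD replicate 2 (35.7%, against 22.0%). The losses were 2 without Flt3-ITD replicate 1 (3.85%, against 7.59%), 1 without Smc3-deleted Flt3-ITD replicate 1 (1.89%, against 4.6%) and 1 without its replicate 2 (1.79%, against 4.32%).

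With Flt3-ITD on top of Smc3 deletion, losses were above the genome's share, and gains lay above or below it by setting. Compared with Smc3 del/+, the combined genotype gained 12 of 52 regions (23.1%, against 19.7% over the genome) and lost 7 (13.5%, against 5.95%). The 7 were the 5 regions called in every library without Flt3-ITD, and chr15:62054237-62055483 and chr15:63555717-63557074, which control replicate 2 did not call. Among the gains was chr15:62223403-62224720, covered by 408 and 339 bp in the combined genotype and by none in Smc3 del/+. At equal list length gains were 3 of 40 (7.5%, against 12.4%) and losses 7 (17.5%, against 9.89%). The gains were 20 without Smc3-deleted Flt3-ITD replicate 1 (33.3%, against 28.1%), 19 without its replicate 2 (30.6%, against 28.2%) and 20 without Smc3 del/+ replicate 2 (35.7%, against 24.5%). Without Smc3 del/+ replicate 1 they were 13 (22.8%, against 23.4%), near the genome's share.

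**Figure D5:**
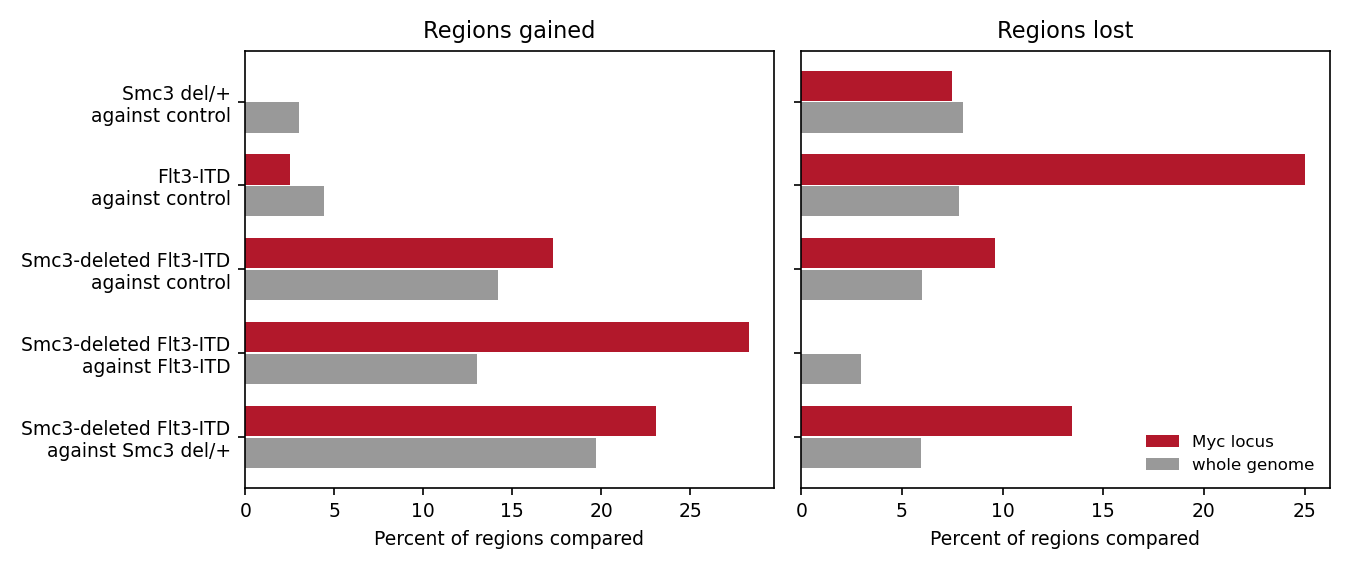
Percent of the regions compared that were gained (left) or lost (right) in each of 5 genotype pairs, in the Myc locus (red) and over the whole genome (grey). Flt3-ITD against control lost 25% in the locus and 7.85% over the genome.

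Regions that only the combined genotype called, in each of its libraries, numbered 7, or 8.33% of the 84, against 4.55% over the genome. They were spread from 13.4 kb to 1704 kb from the start of Myc, and 1 lay in the last 250 kb, chr15:63520453-63521498, covered by 443 and 1046 bp. The others were chr15:61829851-61830896, chr15:61834446-61834780, chr15:61902324-61903711, chr15:62182829-62183221, chr15:62806819-62807185 and chr15:63102253-63102700. At chr15:62182829-62183221, 4 of the other 6 libraries had a peak within 1 kb. At equal list length 2 were left, as with the upper 50% by score, and 13 were found without Smc3-deleted Flt3-ITD replicate 2, settings for which no genome share was computed. No region of the locus was called in each library of another single genotype alone, against 0.34% (Flt3-ITD), 0.59% (Smc3 del/+) and 0.632% (control) over the genome. None was missing from the combined genotype alone (0.443% over the genome), from Smc3 del/+ alone (1.25%) or from control alone (0.211%). One region, chr15:63497030-63497800, was called in the combined genotype and control and in neither single genotype (1.19%, against 0.352% over the genome), and none had the opposite pattern (0.0419%).

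Between Myc and the far cluster, peaks covered 16.6 and 13.4 kb of the middle stretch in Smc3-deleted Flt3-ITD, 12.2 and 10.6 kb in Flt3-ITD, 13.2 and 15.1 kb in Smc3 del/+ and 19.4 and 12.4 kb in control. The genotypes overlapped, except that both Flt3-ITD libraries were below all others. Regions called everywhere with the most open bases were chr15:62012353-62014080, chr15:62008812-62010218, chr15:61937721-61939025, chr15:62653228-62654736 and chr15:61887489-61888669. Of these, 4 lay 71.1 to 196 kb from the start of Myc, on the side where Pvt1 is the next gene in the RefSeq order of GRCm38. For Flt3-ITD the difference was -1.85 kb (exact permutation p = 0.4). It was -3.92 kb in lists of equal length, with the smallest exact permutation p that 4 against 4 allow, 0.0286, which did not pass once adjusted over 9 tests (0.257). Without both libraries of the combined genotype it was -4.51 kb (exact permutation p = 0.333). For Smc3 deletion the difference was 0.926 kb (exact permutation p = 0.714) and for the interaction 2.66 kb (exact permutation p = 0.171), and both turned at equal list length, to -0.156 and -1.05 kb. The Smc3 value was -0.083 kb without Flt3-ITD replicate 2 and -1.73 kb without both libraries of the combined genotype.

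Over the whole locus, libraries of the same genotype shared a Jaccard index of covered bases of 0.309 ± 0.0179 (SD, 4 pairs), and those of different genotypes 0.254 ± 0.0443 (SD, 24 pairs). Smc3 del/+ and control shared 0.326 ± 0.0373 (SD over 4 library pairs), and every other pairing of genotypes averaged between 0.221 and 0.259. Over the genome, Smc3 del/+ and control shared 0.329, close to Flt3-ITD and control with 0.328 and below each pair within a genotype, which shared 0.347 to 0.369. These values are descriptions, since pairs share libraries.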

How the data were processed

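The deposited files are 1 peak list per library, each with an authors' score between 0.99 and 1. Bowtie, without a version, and mm9 are named in the submitters' processing notes. No source used here names the peak caller, its settings or how duplicates and the transposase offset were treated. The score ranked or filtered peaks inside 1 list and had no other use.

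The locus limits, and the approximate place of Myc, are those of the selection rule, and the members and lists were chosen with earlier results of these data known. Peaks that overlapped by at least 1 bp were merged over the genome. Bases covered were clipped to each stretch, and the 3 contrasts were tested by an exact two-sided permutation of the difference of means over 70 assignments. Named regions were all those at Myc, those of the last 250 kb called in all 8 libraries or gained or lost in a pair, and in the middle the 5 with the most covered bases called everywhere and up to 3 gained and lost per pair by score. The limit of 12 named regions was applied to each of the classes of the last 250 kb. The merging, calling and permutation steps were tested on simulated data. No sequence, gene list or motif was analysed here, since no mm9 genome or annotation was used, and gene neighbours were read by name from RefSeq for GRCm38. Versions were matplotlib 3.10.9, scipy 1.17.1, pandas 2.3.3 and numpy 2.4.6 under Python 3.11.15.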

Additional observations from a re-analysis of the deposited data

Results flagged for a closer look

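At 3 regions a single change moved both libraries one way and the same change on the other background moved both the opposite way. These differences between effects were not tested, and the genome share of this pattern was not computed. The region chr15:63497030-63497800 was covered by 489 and 329 bp in Smc3-deleted Flt3-ITD, by none in either single genotype and by 336 and 309 bp in control. Its peaks had low scores, at percentiles 24.3 and 21.1 in Smc3-deleted Flt3-ITD lists and 27.6 and 4.70 in control lists. Smc3 deletion thus went with a peak where Flt3-ITD was present and with its absence where it was not, a difference between effects of 731.5 bp, and the same value holds for Flt3-ITD with and without Smc3 deletion. At chr15:63488773-63490428, coverage was 467 and 388 bp in Smc3-deleted Flt3-ITD, 394 and 422 bp in Flt3-ITD, 310 and 308 bp in Smc3 del/+ and 1035 and 865 bp in control, which gave 660.5 bp for Flt3-ITD with minus without Smc3 deletion. At chr15:62653228-62654736, coverage was 394 and 462 bp in Smc3-deleted Flt3-ITD, 1509 and 432 bp in Flt3-ITD, 902 and 567 bp in Smc3 del/+ and 350 and 394 bp in control, which gave -905 bp.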

How the results depend on the processing

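Of 150 recomputed differences in covered bases over 18 settings, 136 kept their direction and 14 turned, and none had an adjusted p below 0.257. The 136 include the 9 of the replicate block, which are the same by construction. They also include the interaction with the single genotypes exchanged, which cannot change. Differences that turned were those for Smc3 deletion in the last 250 kb with the upper 50% by score (-1.35 kb), for Smc3 deletion at Myc (-0.171 kb) and in the middle (-0.156 kb) and for the interaction in the middle (-1.05 kb) at equal list length, and for Flt3-ITD in the middle by number of peaks (0.5 peaks). With the single genotypes exchanged the values for Smc3 deletion and Flt3-ITD change places, in the middle to -1.85 and 0.926 kb and in the last 250 kb to -1.54 and 0.999 kb, and the promoter width difference became 10.8 bp. Without both Smc3-deleted Flt3-ITD libraries, the Smc3 difference was -0.248 kb at Myc, -1.73 kb in the middle and -1.02 kb in the last 250 kb. The cause of these turns was not tested.

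Leaving out 1 library at a time, the differences at Myc ran from 0.103 to 0.915 kb for Smc3 deletion, 0.654 to 1.43 kb for Flt3-ITD and 0.392 to 1.09 kb for the interaction. In the middle they ran from -0.083 to 2.84 kb, -2.97 to -0.404 kb and 1.35 to 3.66 kb, and in the last 250 kb from -0.132 to 1.76 kb, -2.22 to -0.495 kb and 1.05 to 2.86 kb. The promoter width difference ran from -325 to -197 bp. Regions called in every library ran from 1 to 2 at Myc, 10 to 11 in the middle and 9 to 12 in the last 250 kb. Those of every library without Flt3-ITD ran from 4 to 7, the reverse from 0 to 1 and those of the combined genotype alone from 7 to 13. Gained and lost regions ran from 10 to 17 and 6 to 16 for Smc3-deleted Flt3-ITD against control (genome shares 15.1% to 22.4% and 7.42% to 14.5%). They ran from 14 to 20 and 0 to 2 against Flt3-ITD (16.8% to 22.1% and 4.32% to 8.41%), and 13 to 20 and 7 to 10 against Smc3 del/+ (23.4% to 28.2% and 6.81% to 11.8%). For Flt3-ITD against control they ran from 1 to 5 and 10 to 23 (5.75% to 12.2% and 10.4% to 18.8%). For Smc3 del/+ against control they ran from 0 to 3 and 4 to 14 (4.12% to 9.71% and 12.3% to 18.6%). Leaving out a library loosens the rule over the genome too.

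When lists kept their upper 50% by score, fewer peaks entered. Flt3-ITD against control then gained 0 regions, against 4.04% over the genome, and lost 4 (22.2%, against 6.26%). Smc3-deleted Flt3-ITD against control gained 4 of 24 regions (16.7%, against 14.5% over the genome) and lost 2 (8.33%, against 5.06%). Compared with Flt3-ITD it gained 4 of 21 (19.05%, against 13.7%) and lost 0, against 3.03%. Compared with Smc3 del/+ it gained 6 of 22 (27.3%, against 20.3%) and lost 2 (9.09%, against 5.44%). Regions called everywhere were 2 in the middle and 4 in the last 250 kb, and those of the combined genotype alone 2, counts without a computed genome share. Those of every library without Flt3-ITD numbered 1 (2.44%, against 0.549%). At equal list length, gains were 2 for Flt3-ITD against control (5.26%, against 5.74% over the genome). Smc3-deleted Flt3-ITD gained 3 against control (7.5%, against 10.5%), 3 against Flt3-ITD (8.82%, against 7.14%) and 3 against Smc3 del/+ (7.5%, against 12.4%). It lost 1 against Flt3-ITD (2.94%, against 5.85%), and 2 regions were of the combined genotype alone. With peaks within 500 bp merged, Flt3-ITD gained 0 regions against control, where the genome share was 3.89%. With the single genotypes exchanged, 0 regions were called in every library without Flt3-ITD and in none with it.

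Replicate numbers did not pair the libraries, since replicate differences correlated between -0.0103 and 0.00806 across genotypes. With a replicate block, whose smallest p is 0.0556, the differences are the same by construction (2.02 kb for the interaction in the last 250 kb, exact permutation p = 0.167), exact p-values ran from 0.111 to 0.722, and the promoter width (-262 bp) had p = 0.0556. The alternatives for the promoter width and for counts of regions called everywhere, by Flt3-ITD or in the combined genotype alone were chosen after seeing the data. Depth is unknown, so a missing peak may be an undetected one.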
